A study of Mus musculus with 6 samples.

Results

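The genes described here are 36 interferon-stimulated genes outside the families of the 2'-5' oligoadenylate synthetases, the guanylate-binding proteins, the interferon regulatory factors, the nucleic acid sensors and the TRIM proteins. They were taken by symbol from tables that list 24015 genes, and every one of the 36 symbols was found. RNA was sequenced from leukaemia stem and progenitor cells sorted out of mice whose acute myeloid leukaemia, driven by the fusion oncogene MLL-AF9, had fully developed. The leukaemia was raised from lineage-negative, cKit+ bone marrow progenitors of NIKERT2 mice, a cross of Rosa-loxp-STOP-loxp-NIK with Rosa-CreERT2 mice. NIK is the kinase of the noncanonical NF-kB pathway, encoded by Map3k14. The untreated group (3 libraries) and the tamoxifen group (3 libraries) therefore share the fusion oncogene, the silent NIK transgene at Rosa and the tamoxifen-dependent Cre recombinase, and they differ in tamoxifen treatment of the mice, which lets Cre remove the stop in front of NIK. The Rosa locus is active in most tissues, so Cre and NIK are not limited to leukaemia cells by their promoter in cells that carry the alleles. No library came from tamoxifen-treated cells without the NIK transgene, so tamoxifen, Cre activity and NIK cannot be told apart. The sources used here give no age, dose or sort gate. No label ties the replicates to different animals, and the p-values below then reflect only how far these libraries scatter, which may be technical.

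Interferons are secreted proteins that bind cell surface receptors and activate the kinases JAK1, JAK2 and TYK2. Type I and type III interferons lead to a complex with STAT2 and IRF9 that binds the interferon-stimulated response element (ISRE) in promoters, and interferon gamma acts through the gamma-activated sequence (GAS). The genes switched on in this way block viruses at entry, translation, replication and exit, modify proteins with the ubiquitin-like ISG15, and include brakes on the receptor itself. In haematopoietic stem cells and myeloid cells many of them are also transcribed at a resting level without infection.

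Total counts ranged from 19999071 to 26773176 per library, and levels are given as CPM, counts scaled to library size and composition. A count of 0 leaves room for up to 3 counts, or 0.111 to 0.150 CPM, for counting error only. Map3k14 stood at 26.5, 24.2 and 28.8 CPM in untreated replicates 1 to 3 and at 129.9, 191 and 159.5 CPM in tamoxifen replicates 1 to 3, and reads of the transgene and of the endogenous gene are not separated. The progenitor genes Kit, Cd34, Hoxa9, Meis1, Hoxa10, Flt3, Myb and Elane were all expressed, and Flt3 and Elane fell. Untreated replicate 3 stood apart in 7 neutrophil markers, with a summed level of 2028 CPM against 261 and 10.7 CPM in untreated replicates 1 and 2. Tamoxifen replicate 1 was the highest tamoxifen library for the sum of 12 macrophage markers, at 1617 CPM against 745 and 800.2 CPM in tamoxifen replicates 2 and 3. Vcam1 made up 930.2 CPM of that sum. Each macrophage marker except Cd68 was higher in that library than in the other tamoxifen libraries. Cd68 was lowest in it, at 97.5 CPM against 101 and 105 CPM. Calls that changed when either library was left out are given beside the gene.

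Promoters of the 36 genes were searched because they are grouped by their response to interferon. RefSeq promoter windows of GRCm38.p6, from 250 bases before to 50 after the start site, were matched by symbol for 27 of the 36 genes; Ifi27, Ifi27l2a, Iigp1, Mx1, Mx2, Parp14, Parp9, Rtp4 and Usp18 had no entry. The ISRE core was searched as GAAANNGAAA and its reverse complement TTTCNNTTTC, with overlapping matches allowed. It was present in 10 of the 27 genes (37%), against 3.73% of the 9631 tested genes with a window and 3.99% of all 27025 genes with one. The following stretches of 160 bases, which end just before the start site and run 5′ to 3′ on the strand of the gene, show the element in 6 genes that rose and in Ifit3, which did not pass the test; the capitals mark the matches.
Isg15: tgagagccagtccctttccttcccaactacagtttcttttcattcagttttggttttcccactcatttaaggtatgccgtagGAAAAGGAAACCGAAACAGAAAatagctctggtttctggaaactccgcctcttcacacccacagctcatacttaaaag
Ifit1: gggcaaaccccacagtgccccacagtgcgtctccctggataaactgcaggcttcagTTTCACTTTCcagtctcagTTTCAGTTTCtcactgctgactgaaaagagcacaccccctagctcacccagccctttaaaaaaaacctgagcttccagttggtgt
Ifit3: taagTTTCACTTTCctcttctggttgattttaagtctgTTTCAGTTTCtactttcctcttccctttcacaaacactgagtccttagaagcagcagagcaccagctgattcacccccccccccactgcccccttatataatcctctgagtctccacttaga
Rsad2: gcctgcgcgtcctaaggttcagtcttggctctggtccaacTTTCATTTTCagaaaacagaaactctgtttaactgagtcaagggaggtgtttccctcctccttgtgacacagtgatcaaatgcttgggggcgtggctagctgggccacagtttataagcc
Igtp: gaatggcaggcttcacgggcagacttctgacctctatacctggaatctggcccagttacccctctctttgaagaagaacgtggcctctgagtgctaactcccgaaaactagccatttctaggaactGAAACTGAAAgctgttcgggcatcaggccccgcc
Ifi203: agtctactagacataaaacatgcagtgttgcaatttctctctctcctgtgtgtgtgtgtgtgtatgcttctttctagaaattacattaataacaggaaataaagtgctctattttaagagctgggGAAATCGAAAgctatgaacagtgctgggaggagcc
Ifitm2: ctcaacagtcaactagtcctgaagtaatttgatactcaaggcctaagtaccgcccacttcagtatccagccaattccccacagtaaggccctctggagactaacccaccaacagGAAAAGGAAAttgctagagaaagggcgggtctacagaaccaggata
In GRCm38.p6 these stretches lie at chr4:156200819-156200978 on the minus strand for Isg15, chr19:34640729-34640888 on the plus strand for Ifit1 and chr19:34583369-34583528 on the plus strand for Ifit3. Those of Rsad2, Igtp, Ifi203 and Ifitm2 lie at chr12:26456453-26456612 on the minus strand, chr11:58199396-58199555 on the plus strand, chr1:173942493-173942652 on the minus strand and chr7:140955962-140956121 on the minus strand. Isg15 carries 3 overlapping matches between positions -78 and -57 from the start site, and Ifit1 carries 2 separate ones that start at positions -104 and -85. Rsad2 has a single match at -120 to -111, Igtp at -34 to -25, Ifi203 at -35 to -26 and Ifitm2 at -46 to -37.

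The ISRE core was found in 6 of 14 matched genes that rose (42.9%) and in 4 of 13 that did not pass (30.8%), a difference that was not tested. The 4 were Stat2, Ifit3, Ifitm3 and Bst2. The GAS motif, searched as TTCNNNGAA, which is its own reverse complement, occurred in 8 of the 27 genes (29.6%), against 8.35% of tested genes and 9.55% of all genes with a window. It was present in 3 of the 14 genes that rose and in 5 of the 13 that did not pass, and in Bst2 and Ifitm3 it overlapped an ISRE match. A form of the NF-kB motif, searched as GGGNNTTTCC and GGAAANNCCC, was in none of the 27, against 2.11% of tested genes and 1.89% of all genes with a window. At shares this low, its absence from 27 genes cannot be told from the background, and other forms were not searched. These letters describe the windows alone.

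With tamoxifen 21 of the 36 interferon-stimulated genes rose, 15 did not pass the test and none fell (edgeR quasi-likelihood test, two-sided, Benjamini-Hochberg adjusted p under 0.05 over 12729 genes). Among all genes tested 8.96% rose and 8.24% fell. All 36 passed the filter on low counts. Ifi202b and Iigp1 passed it only through the tamoxifen libraries, where they had 33, 17 and 13 counts and 27, 19 and 31 counts. Their untreated libraries held 0, 2 and 3 counts and 6, 10 and 5 counts. Both are among the 21 that rose. A stricter filter, described under the processing, dropped both, and 19 members then rose. No member was lower at an unadjusted p under 0.05 with edgeR, DESeq2 or limma voom (0 with each). The median log2 fold change over the 36 genes was 0.78, against -0.0025 over all genes tested, and 34 of the 36 fitted values (94.4%) were above 0, against 49.6% of all. Of the 36 genes, 14 passed the test and were more than 2-fold higher with tamoxifen (38.9%), against 5.24% of all genes tested. The groups did not overlap, with tamoxifen higher, for 24 of the 36 genes, where the background share is 18.1%. In these bulk samples a change in the number of cells that carry a transcript and a change in RNA per cell cannot be told apart.

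**Figure D1:**
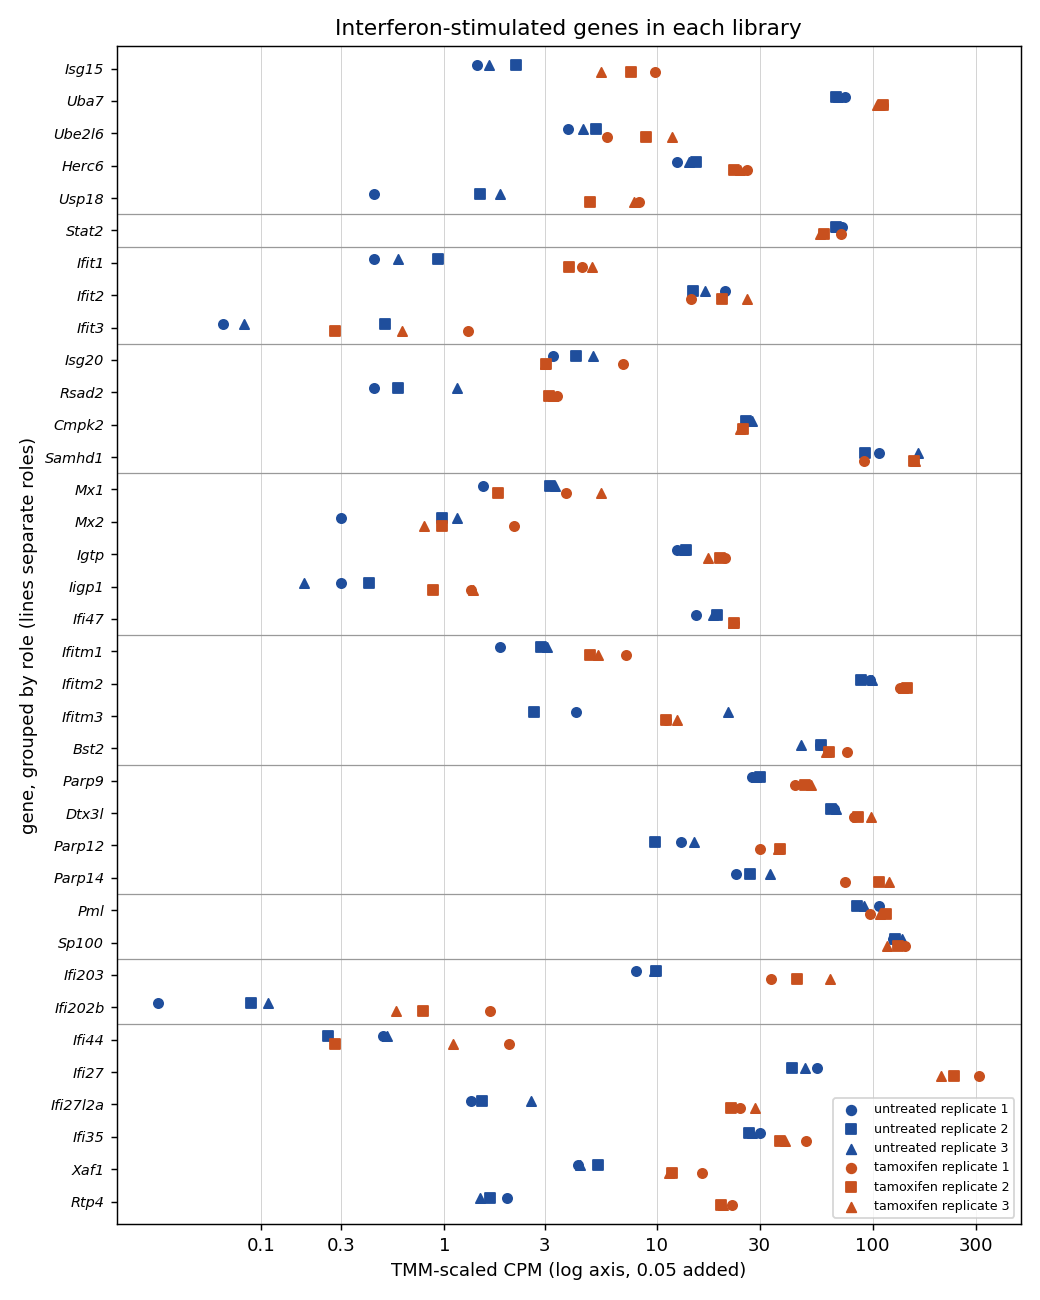
Level of each of the 36 genes in each library, in CPM on a log axis with 0.05 added so that a count of 0 can be drawn; colour gives the group, symbol the replicate, and lines separate the roles. Rtp4, Ifi27l2a and Ifi27 show a wide gap between the groups, whereas the symbols of Sp100, Pml and Stat2 are mixed.

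The conjugation system of ISG15, a ubiquitin-like protein that is attached to other proteins, rose in 4 of its 5 genes. Isg15 itself was at 1.44, 2.204 and 1.63 CPM in untreated replicates 1 to 3 and at 9.85, 7.61 and 5.49 CPM in tamoxifen replicates 1 to 3 (log2 2.11, SE 0.31, edgeR adjusted p = 0.00324). Its lowest tamoxifen library was above its highest untreated one. Uba7, the E1 enzyme that activates ISG15, went from 74.4, 68.03 and 69.2 to 112, 111 and 104 CPM (log2 0.63, SE 0.08, edgeR adjusted p = 0.00182). Herc6, the main E3 ligase for ISG15 in the mouse, went from 12.4, 15.3 and 14.1 to 26.1, 22.9 and 24.4 CPM (log2 0.81, SE 0.13, edgeR adjusted p = 0.00502). Usp18, which removes ISG15 from proteins and holds back signalling at the type I receptor, had the largest fitted change of the 5, from 0.447, 1.48 and 1.86 to 8.296, 4.87 and 7.88 CPM (log2 2.45, SE 0.48, edgeR adjusted p = 0.0114). Untreated replicate 1 was the low library for Usp18. The E2 enzyme gene Ube2l6 stood at 3.88, 5.21 and 4.53 CPM untreated and 5.85, 8.96 and 11.8 CPM with tamoxifen. Its groups did not overlap either, with tamoxifen higher, as for 18.1% of all genes tested. Ube2l6 missed the threshold (log2 0.97, SE 0.29, edgeR adjusted p = 0.0544) and passed without tamoxifen replicate 1 (log2 1.196, edgeR adjusted p = 0.00651) and with DESeq2 (DESeq2 adjusted p = 0.0110).

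Of the 3 IFIT genes, whose products bind viral RNA and block its translation, Ifit1 rose and Ifit2 and Ifit3 did not pass. Ifit1 was near the limit of detection before treatment, at 0.447, 0.932 and 0.594 CPM, and at 4.498, 3.8998 and 5.001 CPM with tamoxifen (log2 2.75, SE 0.36, edgeR adjusted p = 0.00182). The libraries were mixed for Ifit2, at 20.7, 14.8 and 16.7 CPM untreated and 14.5, 20.1 and 26.2 CPM with tamoxifen (log2 0.22, SE 0.23, edgeR adjusted p = 0.56). The log2 ratio of Ifit1 to Ifit2 was -5.53, -3.99 and -4.82 in the untreated libraries and -1.69, -2.36 and -2.39 in the tamoxifen libraries. This ratio separated the groups completely (difference 2.63, exact permutation p = 0.10, two-sided, and 0.10 after adjustment over 6 gene pairs). That p is the smallest that 3 against 3 libraries can give, so the test cannot reach 0.05. The 6 pairs were chosen with earlier results of these data known, and all 6 separated the groups. How often other gene pairs do so was not computed, so the ratios are given as description only. Ifit3 had few reads, at 0.0497, 0.509 and 0.0743 CPM and 1.299, 0.279 and 0.62 CPM (log2 1.75, SE 0.89, edgeR adjusted p = 0.222), and its promoter carries the pair of ISRE cores printed above. Without tamoxifen replicate 1, its highest library, the log2 difference was 1.07 (edgeR adjusted p = 0.451). Ifit3 has a close copy, Ifit3b, listed under its older symbol I830012O16Rik with at most 15 counts in a library, so reads of Ifit3 may be split or dropped. In RefSeq, Ifit2, Ifit3 and Ifit1 follow one another among the tested genes.

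Among the enzymes that act on nucleotides and nucleic acids, Rsad2 alone rose of 4. Rsad2 encodes viperin, which makes a chain-terminating nucleotide from CTP, and went from 0.447, 0.593 and 1.15 CPM to 3.45, 3.16 and 3.27 CPM (log2 2.15, SE 0.40, edgeR adjusted p = 0.00956). Its RefSeq neighbour Cmpk2, a mitochondrial nucleotide kinase often induced with viperin, stood at 26.3, 26.02 and 27.6 CPM untreated and 24.9, 25.1 and 24.4 CPM with tamoxifen. All 3 tamoxifen libraries were lower for Cmpk2, as for 19.6% of all genes tested, but the difference was small and did not pass (log2 -0.10, SE 0.09, edgeR adjusted p = 0.501). The log2 ratio of Rsad2 to Cmpk2 was -5.88, -5.45 and -4.58 untreated and -2.85, -2.99 and -2.90 with tamoxifen (difference 2.39, exact permutation p = 0.10, the smallest possible; 0.10 adjusted over 6 pairs). Isg20, a 3′ to 5′ exonuclease gene, was at 3.28, 4.196 and 5.05 CPM and 6.95, 3.06 and 3.01 CPM (log2 0.05, SE 0.38, edgeR adjusted p = 0.946), with tamoxifen replicate 1 above and replicates 2 and 3 below all untreated libraries. Without tamoxifen replicate 1 its log2 difference was -0.46 (edgeR adjusted p = 0.271). Samhd1, which degrades deoxynucleotides, was at 106, 92.6 and 161 CPM untreated and 90.8, 155 and 157 CPM with tamoxifen (log2 0.16, SE 0.26, edgeR adjusted p = 0.715). Its high untreated library was replicate 3 and its low tamoxifen library was replicate 1, the libraries with high neutrophil and macrophage markers. With both of these left out, a choice made after seeing the data, Samhd1 passed (log2 0.65, edgeR adjusted p = 0.00125).

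The antiviral GTPase genes rose in 2 of 5. The immunity-related GTPase genes Igtp and Iigp1, whose products act on vacuoles that hold pathogens, were the ones that passed. Igtp went from 12.5, 13.7 and 13.4 to 20.6, 19.6 and 17.3 CPM (log2 0.54, SE 0.13, edgeR adjusted p = 0.0297) and Iigp1 from 0.298, 0.424 and 0.186 to 1.35, 0.882 and 1.37 CPM (log2 1.98, SE 0.47, edgeR adjusted p = 0.0245). Neither held up throughout: Igtp missed the threshold without any 1 of the untreated libraries or without tamoxifen replicate 2, and Iigp1 without any 1 of the untreated libraries or without tamoxifen replicate 3 (edgeR adjusted p up to 0.128 and 0.108). Ifi47, another gene of this family, was higher in all tamoxifen libraries (22.7, 22.9 and 22.5 CPM against 15.2, 19.1 and 18.3 CPM), as were 18.1% of all genes tested. It did not pass (log2 0.37, SE 0.13, edgeR adjusted p = 0.0823). The dynamin-like GTPase genes Mx1 and Mx2 had groups that overlapped. Mx1 was at 1.54, 3.18 and 3.34 CPM untreated and 3.798, 1.81 and 5.53 CPM with tamoxifen (log2 0.46, SE 0.46, edgeR adjusted p = 0.545). For Mx2 the levels were 0.298, 0.975 and 1.15 CPM and 2.15, 0.975 and 0.797 CPM (log2 0.67, SE 0.59, edgeR adjusted p = 0.489).

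Of 4 genes for proteins that restrict viruses at membranes, Ifitm1 and Ifitm2 rose and Ifitm3 and Bst2 did not pass. The IFITM proteins hinder the fusion of viruses with endosomes. Ifitm2 went from 96.8, 87.99 and 99.4 to 133, 144 and 139 CPM (log2 0.55, SE 0.09, edgeR adjusted p = 0.00443), with little spread in either group. Ifitm1 went from 1.84, 2.88 and 3.08 to 7.197, 4.92 and 5.31 CPM (log2 1.15, SE 0.30, edgeR adjusted p = 0.0321) but failed to pass on leaving out any 1 library except tamoxifen replicate 1 (edgeR adjusted p up to 0.118). Between Ifitm1 and Ifitm2 the log2 ratio changed by 0.63 (exact permutation p = 0.10, the smallest possible; 0.10 adjusted over 6 pairs).

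Ifitm3 depended on 1 library. It was at 4.23, 2.67 and 21.3 CPM in untreated replicates 1 to 3 and at 11.1, 11.1 and 12.5 CPM in tamoxifen replicates 1 to 3 (log2 0.29, SE 0.66, edgeR adjusted p = 0.805). Untreated replicate 3 exceeded every tamoxifen library, while untreated replicates 1 and 2 lay below all of them. Without untreated replicate 3 the log2 difference was 1.75 (edgeR adjusted p = 0.00686). The same library held the high neutrophil marker sum of 2028 CPM, and untreated replicate 2, lowest in Ifitm3, held the lowest sum, 10.7 CPM; the part of neutrophils in the level of Ifitm3 was not tested. Bst2 encodes tetherin, which holds budding virus at the cell surface, and was at 57.2, 57.5 and 46.9 CPM untreated and 75.8, 62.8 and 60.8 CPM with tamoxifen. Every tamoxifen library was higher for Bst2, as for 18.1% of all genes tested, but the difference did not pass (log2 0.30, SE 0.12, edgeR adjusted p = 0.13).

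**Figure D2:**
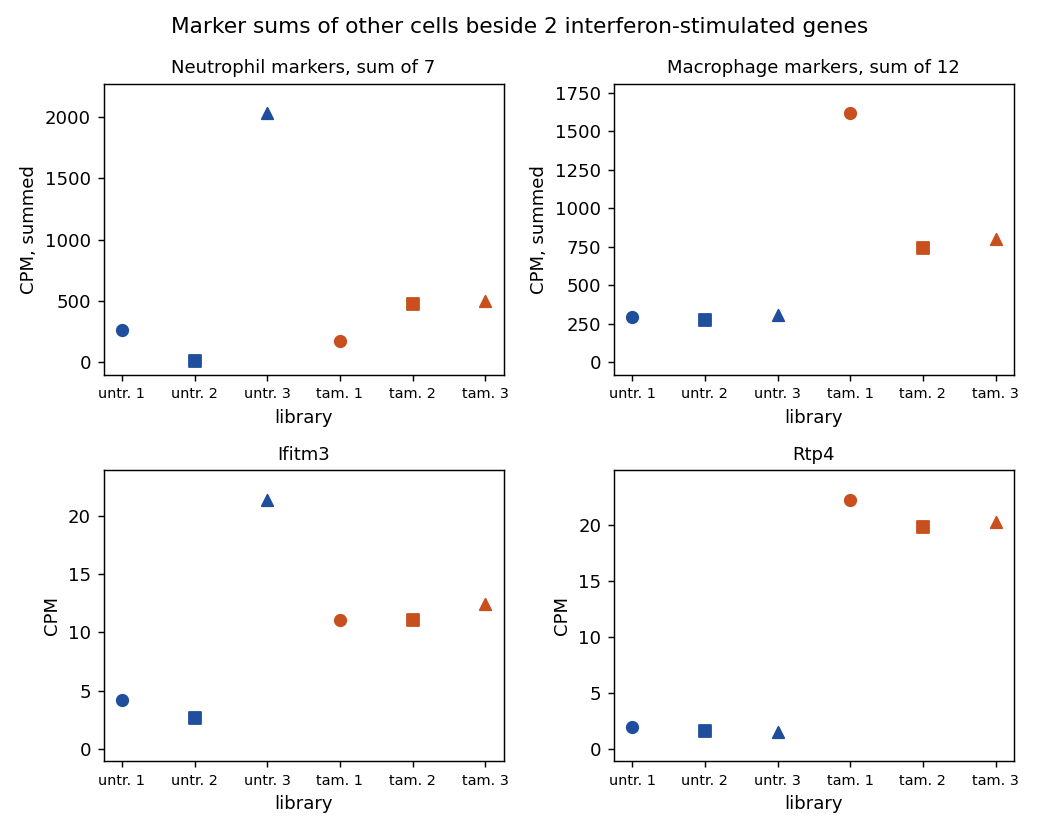
Summed CPM of 7 neutrophil markers and of 12 macrophage markers and the CPM of Ifitm3 and Rtp4 in each library (untr., untreated; tam., tamoxifen; linear axes). Untreated replicate 3 is the highest library for neutrophil markers and for Ifitm3, and tamoxifen replicate 1 for macrophage markers. For Rtp4 the 3 tamoxifen libraries lie between 19.8 and 22.2 CPM. The part of either cell type in these levels was not tested.

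All 4 genes of ADP-ribosylation rose. PARP9 and DTX3L form a complex that modifies histones and ubiquitin, and PARP12 and PARP14 attach single ADP-ribose units to proteins. Parp14 changed most, from 23.3, 26.998 and 33.5 to 74.7, 107 and 118 CPM (log2 1.84, SE 0.20, edgeR adjusted p = 0.000715), and Parp12 went from 12.9, 9.79 and 14.9 to 30.2, 37.3 and 36.4 CPM (log2 1.47, SE 0.17, edgeR adjusted p = 0.00112). The smaller changes were those of Parp9, from 27.5, 30.2 and 28.7 to 43.98, 48.8 and 51.998 CPM (log2 0.74, SE 0.10, edgeR adjusted p = 0.00171), and of Dtx3l, from 66.4, 64.3 and 67.5 to 81.7, 85.6 and 98.7 CPM (log2 0.42, SE 0.10, edgeR adjusted p = 0.0197). Parp14, Dtx3l and Parp9 follow one another among the tested genes in RefSeq, and Dtx3l and Parp9 overlap there, so that their counts may share reads. The log2 ratio of Parp14 to Parp9 changed by 1.09 and that of Dtx3l to Parp9 by -0.32 (exact permutation p = 0.10 for each, the smallest possible, and 0.10 adjusted over 6 pairs). Neither ratio overlapped between the groups, as for all 6 chosen pairs, and no share among other gene pairs was computed. Dtx3l missed the threshold when any 1 untreated library was left out (edgeR adjusted p up to 0.0846).

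The genes of nuclear bodies and the STAT2 gene did not pass the test. Pml, the scaffold of these bodies, was at 107, 84.6 and 91.1 CPM untreated and 96.9, 116 and 108 CPM with tamoxifen (log2 0.18, SE 0.11, edgeR adjusted p = 0.327). Sp100, another of their resident proteins, was at 124, 127 and 136 CPM and 142, 131 and 116 CPM (log2 0.0041, SE 0.10, edgeR adjusted p = 0.983). Stat2, whose product is part of the complex that binds the ISRE, was at 72.4, 67.5 and 67.5 CPM and 71.7, 59.7 and 57.1 CPM (log2 -0.14, SE 0.11, edgeR adjusted p = 0.421). These 3 genes were at 57.1 CPM or more in every library, and the SE of the log2 change was at most 0.11 for each.

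Both genes of the p200 family, DNA-binding proteins encoded in a cluster, rose. Ifi203 went from 8.05, 9.96 and 9.73 to 34.04, 44.5 and 63.2 CPM (log2 2.35, SE 0.23, edgeR adjusted p = 0.000421). Ifi202b was close to silent untreated, at 0, 0.0848 and 0.111 CPM, and reached 1.65, 0.789 and 0.575 CPM (log2 3.74, SE 0.79, edgeR adjusted p = 0.0152); it rested on 5 counts in all untreated libraries together. It missed the threshold without untreated replicate 1 or without untreated replicate 2 (edgeR adjusted p up to 0.0591). Ifi202b is next to Ifi203 among tested genes in RefSeq, and the tested gene on the other side of Ifi203, the p200 gene Mndal, which was named after its value was seen, rose as well (log2 1.95). Genes of this family resemble each other, and reads of one may be counted for another.

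Of the other 6 genes 5 rose, among them Ifi27l2a, which had the largest fitted change of the 36. Rtp4, a receptor transporter protein with antiviral activity, had the smallest p of the 36: it was at 1.99, 1.65 and 1.49 CPM untreated and at 22.2, 19.8 and 20.3 CPM with tamoxifen (log2 3.61, SE 0.19, edgeR adjusted p = 2.79e-05). Its 3 tamoxifen libraries were close together, and the log2 change stayed between 3.52 and 3.73 whichever library was left out. Rtp4 overlaps Masp1 in RefSeq, and Masp1 had at most 1 count in a library. The tested genes on either side of Rtp4 there are St6gal1, which rose (log2 4.94), and Bcl6, which did not pass (log2 0.05). Both were named after their values were seen. Ifi27l2a went from 1.34, 1.53 and 2.599 to 24.3, 22.2 and 28.7 CPM (log2 3.77, SE 0.27, edgeR adjusted p = 0.000124) and Ifi27 from 55.03, 42.2 and 48.5 to 312, 237 and 206 CPM (log2 2.37, SE 0.17, edgeR adjusted p = 0.000124); both encode small hydrophobic proteins. The log2 ratio of Ifi27l2a to Ifi27 changed by 1.48 (exact permutation p = 0.10, the smallest possible, and 0.10 adjusted over 6 pairs). The groups did not overlap in this ratio, as for all 6 chosen pairs, and no share among other gene pairs was computed. The pair overlap in RefSeq, so the counts of one may include or exclude reads of the other.

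Xaf1, which opposes the caspase inhibitor XIAP, went from 4.32, 5.34 and 4.42 to 16.2, 11.8 and 11.4 CPM (log2 1.49, SE 0.21, edgeR adjusted p = 0.00286). Ifi35, which binds leucine zipper proteins, went from 30.2, 26.9 and 27.7 to 49.4, 37.3 and 39.2 CPM (log2 0.57, SE 0.12, edgeR adjusted p = 0.0176) and missed the threshold when any 1 untreated library was left out (edgeR adjusted p up to 0.0736). Ifi44 did not pass, at 0.497, 0.254 and 0.52 CPM untreated and 2.05, 0.279 and 1.11 CPM with tamoxifen (log2 1.42, SE 0.70, edgeR adjusted p = 0.209). Tamoxifen replicate 2 lay within the untreated range for Ifi44, and replicate 1 was the highest; without replicate 1 the log2 difference was 0.71 (edgeR adjusted p = 0.486).

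**Figure D3:**
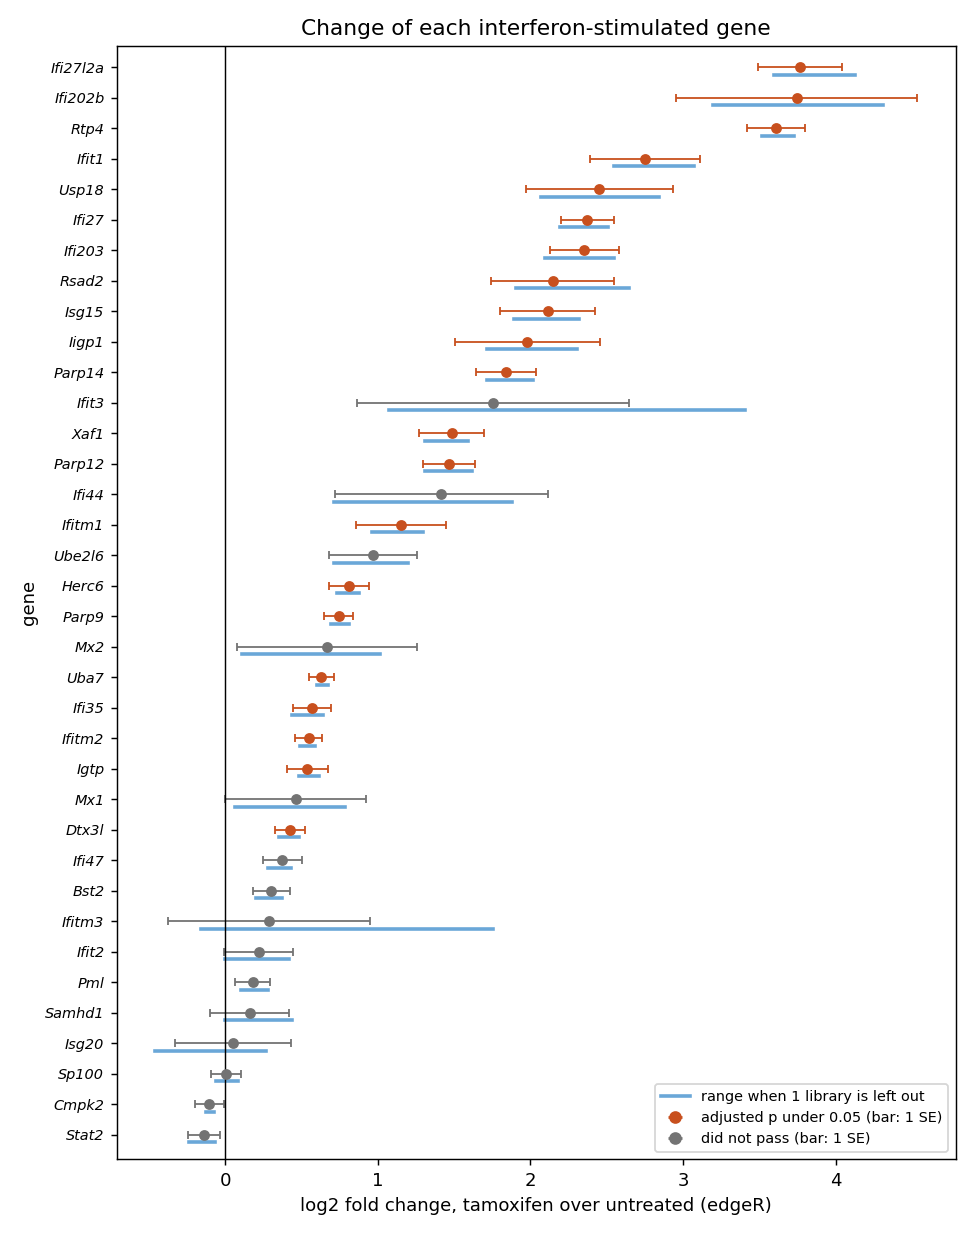
Fitted log2 fold change of each of the 36 genes (points, with bars of 1 SE; orange where the adjusted p is under 0.05) and the range of that value when each library is left out in turn (blue lines). Ifi27l2a at 3.77 and Stat2 at -0.14 are the extremes, and the range is wide for Ifit3 and Ifitm3.

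Genes with low and with high counts both rose. Below a mean of 20 CPM over all 6 libraries, 12 of 20 members rose with a median log2 change of 1.45. At or above it 9 of 16 rose with a median of 0.49. That mean includes the tamoxifen libraries, so a rise can move a gene into the upper class. Ifi203 and Parp12 were placed there with untreated means of 9.25 and 12.5 CPM. Among all genes tested the shares were 11% below and 7.55% at or above that level. Per kilobase of merged exons in GENCODE M21, which is not the annotation of the counts, Ifitm2 was the highest of the 36 in both groups (145 CPM per kb untreated, 211 with tamoxifen). By the same measure Ifi27 moved from rank 3 to rank 2, Ifi27l2a from rank 17 to rank 4 and Rtp4 from rank 27 to rank 16. Ifi44 and Iigp1 were the lowest with tamoxifen, at 0.187 and 0.206 CPM per kb.

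Upstream of these genes, 7 of 17 tested genes for interferon receptors, kinases, transcription factors and brakes rose and none fell (edgeR; 0 lower at an unadjusted p under 0.05, and 0 by DESeq2 or limma voom), where 8.96% of all genes tested rose. The list was chosen by role and had 38 genes. Of its 21 interferon genes, none passed the filter on low counts. No library held a count of 19 of them, Ifnb1 included, and the highest count of Ifng or Ifnz was 8. A count of 0 allows up to 0.111 to 0.150 CPM in a library, provided that no reads were lost. Genes for interferon alpha resemble each other, and the handling of multiply mapped reads is not stated. If such reads were dropped, a count of 0 sets no limit on the level of these genes. With DESeq2 12 of the 17 rose, as did 10% of all genes. With edgeR 4 rose without untreated replicate 1 and 11 without tamoxifen replicate 1, where the shares of all genes that rose were 4.46% and 12.8%.

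The largest change in this list was that of Ifnlr1, the specific chain of the receptor for type III interferons (interferon lambda). It was at 1.64, 1.27 and 3.53 CPM untreated and at 276, 378 and 324 CPM with tamoxifen (log2 7.22, SE 0.35, edgeR adjusted p = 2.14e-05). Its log2 change stayed between 6.94 and 7.82 whichever library was left out. Il10rb, the chain shared with other cytokine receptors that completes this receptor, was at 101, 109.8 and 101 CPM and 109, 106 and 112 CPM (log2 0.07, SE 0.08, edgeR adjusted p = 0.613). For the type I receptor, Ifnar1 rose from 112, 121 and 114 to 140.3, 167 and 174 CPM (log2 0.47, SE 0.10, edgeR adjusted p = 0.0171) and Ifnar2 did not pass, at 159, 167 and 151 CPM and 153, 149 and 152 CPM (log2 -0.07, edgeR adjusted p = 0.611). For interferon gamma, the signalling chain Ifngr2 rose (log2 0.54, edgeR adjusted p = 0.0402) and the binding chain Ifngr1 did not pass (log2 -0.16, edgeR adjusted p = 0.269). Ifnar1 and Ifngr2 each missed the threshold in 4 of the 6 fits that left 1 library out.

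Irf9, the DNA-binding part of the complex at the ISRE, rose from 39.02, 39.2 and 39.6 to 89.1, 71.9 and 80.5 CPM (log2 1.04, SE 0.10, edgeR adjusted p = 0.000395), beside the values of Stat2 given above. The kinase gene Tyk2 rose from 127, 129 and 120.1 to 184, 194 and 189 CPM (log2 0.59, SE 0.08, edgeR adjusted p = 0.00182). Jak1 (log2 0.35, edgeR adjusted p = 0.0795) and Jak2 (log2 0.49, edgeR adjusted p = 0.133) did not pass, and both passed without tamoxifen replicate 1 (edgeR adjusted p = 0.00529 and 0.0119). Among the brakes, the phosphatase gene Ptpn6 rose (log2 0.40, SE 0.08, edgeR adjusted p = 0.0139). Socs1 (log2 0.87) and Socs3 (log2 1.03), which block the JAK kinases, were higher in all tamoxifen libraries, as were 18.1% of all genes tested. Both did not pass (edgeR adjusted p = 0.0795 and 0.103), whereas with DESeq2 both passed (DESeq2 adjusted p = 0.0183 and 0.0465). Socs3 also passed without untreated replicate 3 (log2 1.52, edgeR adjusted p = 0.0331) and without both that library and tamoxifen replicate 1 (log2 1.36, edgeR adjusted p = 0.0139). The phosphatase genes Ptpn1 (log2 0.55, edgeR adjusted p = 0.0627) and Ptpn2 (log2 0.29, edgeR adjusted p = 0.0508) did not pass, but both passed with DESeq2 (DESeq2 adjusted p = 0.00640 and 0.0400) and without tamoxifen replicate 1 (edgeR adjusted p = 0.00636 and 0.0401). Ptpn6 missed the threshold without untreated replicate 1 or 2.

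**Figure D4:**
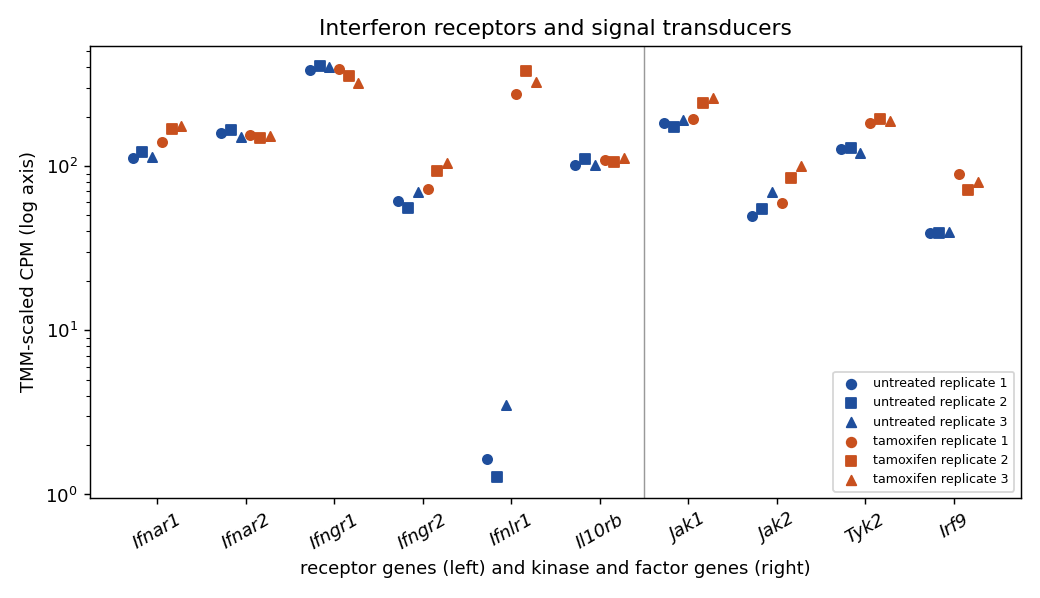
CPM of the 6 interferon receptor genes and of 4 kinase and transcription factor genes in each library, on a log axis; colour gives the group and symbol the replicate. Ifnlr1 lies between 1.27 and 3.53 CPM in the untreated libraries and between 276 and 378 CPM in the tamoxifen libraries, and the next largest fitted change among the 10 genes is that of Irf9 (log2 1.04).

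Cell type markers were set beside the calls. Of 12 macrophage markers 9 rose, where 8.96% of all genes tested rose. The summed level of the 12 was 278 to 306 CPM untreated and 745 to 1617 CPM with tamoxifen. Vcam1 held much of it, with means of 78.1 CPM untreated and 615 CPM with tamoxifen. Cd163, Marco and Cd68 did not pass. For Cd68 every tamoxifen library was below every untreated one (log2 -0.21, edgeR adjusted p = 0.113), as for 19.6% of all genes tested. Macrophages express many interferon-stimulated genes, and the part of these cells in the rises was not tested. Tamoxifen replicate 1 was the highest tamoxifen library for 19 of the 36 genes and for 12 of the 21 that rose. The median difference of the 36 genes from the untreated mean, on the log2(CPM + 1) scale, was 0.81, 0.63 and 0.67 in tamoxifen replicates 1 to 3. Without tamoxifen replicate 1, all 21 genes passed again and Ube2l6 passed as well, and the share of all genes that rose was 12.8%. Without tamoxifen replicate 1 and untreated replicate 3 together, 23 rose, with Ube2l6, Samhd1 and Ifitm3 added and Iigp1 lost, and the share of all genes was 14.2%.

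For the other cell types the sums of marker levels were as follows, and their part in the results was not tested. Plasmacytoid dendritic cells, known for making type I interferon, had 37.4 to 43.3 CPM untreated and 31.3 to 67.9 CPM with tamoxifen. Of their 7 markers 4 were tested, and 2 rose (Ccr9 and Ly6d), where 8.96% of all genes tested rose. Cox6a2 did not pass, nor did Tcf4, which made up most of the sum (log2 -0.10, edgeR adjusted p = 0.841). Pacsin1 had 1 to 4 counts in the untreated libraries and none with tamoxifen. Klk1 had no count and Siglech was at most 0.310 CPM. Conventional dendritic cell markers summed to 7.88 to 25.3 CPM and 32.0 to 38.5 CPM, T cell markers to 22.4 to 28.5 CPM and 29.5 to 81.2 CPM, and natural killer cell markers to 0.945 to 1.60 CPM and 1.81 to 2.90 CPM. The groups did not overlap in these 3 sums, with tamoxifen higher, where the share among single genes tested is 18.1%. No tested marker of conventional dendritic cells or of natural killer cells passed. Itgax, Lck and Gzma made up most of the respective sums in each tamoxifen library. Of the T cell markers Lck rose and Cd28 fell, and the natural killer cell gene Ncr1 had no count in any library. For B cells the sums were 40.9 to 45.6 CPM and 31.9 to 49.2 CPM, and Pax5 had no count. The erythroid genes Hba-a1 and Hbb-b1 had no count, and erythroid sums reached at most 4.15 CPM. Neutrophil markers summed to 10.7 to 2028 CPM untreated and 171 to 499 CPM with tamoxifen.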

How the data were processed

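RNA was measured in 3 untreated and 3 tamoxifen libraries, grouped by the sample titles. Each deposited file holds the authors' whole-number counts per gene symbol, not normalized. Per the submitters' processing notes, the tools were TopHat2 2.1.0, featureCounts, FastQC and DESeq2 on mm9. The sources used here state no annotation, strand setting or handling of multiply mapped reads, so close copies and overlapping genes may share or lose reads. All genes were fitted together in edgeR 4.0.16 (R 4.3.3): filterByExpr with a minimum of 10 counts (12729 of 24015 genes kept), TMM factors of 0.986 to 1.007, and the quasi-likelihood F test (two-sided, no covariate), Benjamini-Hochberg adjusted, threshold 0.05. SE is the size of the log2 change divided by the root of F. CPM is TMM-scaled. Alternatives were RLE, upper quartile and no factors, no filter, a filter at more than 1 CPM in 3 or more libraries, limma 3.58.1 voom, DESeq2 1.42.0, the replicate block and leaving out libraries. The fit was tested on simulated data. Each pair of libraries differed beyond sampling noise (chi-square of 11.7 or more per degree of freedom). Every member is accounted for, and pathway genes that passed are named, except 1 that is counted but not reported here. Members, lists and pairs were chosen with earlier results of these data known. RefSeq (GRCm38.p6) sequences and gene order and GENCODE M21 exon lengths are of another build than the counts.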

Additional observations from a re-analysis of the deposited data

How the results depend on the processing

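Between 15 and 23 members rose and none fell under every alternative run. Of the 21 that rose, 15 passed under all 15 alternatives: Ifi203, Xaf1, Rsad2, Ifi27l2a, Ifi27, Rtp4, Parp14, Parp9, Ifit1, Isg15, Parp12, Herc6, Usp18, Ifitm2 and Uba7. The other 6 were Igtp, Iigp1, Ifitm1, Dtx3l, Ifi202b and Ifi35. With 1 library left out, 15 to 22 members rose, their median log2 change ran from 0.72 to 0.99, and 4 to 11 pathway genes rose; the share of all genes that rose moved too, from 4.46% without untreated replicate 1 to 12.8% without tamoxifen replicate 1. The median was 0.65 with the stricter filter, which keeps 31 of the 36 members. Of the pathway genes 12 rose with DESeq2 (10% of all genes) and 11 without untreated replicate 3 and tamoxifen replicate 1 together (14.2% of all genes), an alternative chosen after seeing the data. Sign changes were seen in members that did not pass: Isg20 was at -0.083 with limma voom, -0.047 with the replicate block and -0.30 with both libraries left out, and Sp100 at -0.0043 without a filter, -0.00094 with limma voom and -0.022 with both left out. With 1 library left out, log2 changes ran from -0.46 to 0.27 for Isg20, -0.060 to 0.086 for Sp100, -0.16 to 1.75 for Ifitm3 and -0.0010 to 0.42 for Ifit2; the cause was not tested. Correlations of deviations from the group means were 0.16, -0.17 and 0.11 for libraries of the same number and -0.22 to 0.18 for the others. With 3 libraries per group they cannot settle whether replicate numbers pair the libraries. With the replicate block 18 members rose (median log2 0.84) and 8 pathway genes, with 7.53% of all genes, and Igtp, Iigp1 and Ifitm1 missed the threshold. Ifit3, Ifi44 and Ifi202b had at most 26, 41 and 33 counts in a library, so that counting error alone is wide for each of their levels; for Ifi44 the tamoxifen counts were 41, 6 and 25.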
